A study of Mus musculus with 6 samples.

Results

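The kinases and scaffolds described here are 10 genes of the Hippo pathway and its NDR branch, measured by bulk RNA-seq in mouse corneal epithelium. They are the LATS kinases *Lats1* and *Lats2*, the MST kinases *Stk3* (MST2) and *Stk4* (MST1), the NDR kinases *Stk38* (NDR1) and *Stk38l* (NDR2), the scaffolds *Fry* and *Fryl*, and the adaptors *Mob1a* and *Sav1*. All 10 were found by gene symbol among the 17784 genes listed, and all 10 passed the filter on low counts that left 12999 genes for testing. The set was chosen from results of the same comparison that is described here, the read counts and TPM (a transcript level scaled for gene length and depth) of *Ptch1*-ablated against control samples. Its differences between the groups are therefore given as a description, without a test.

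Corneal epithelium was compared between 3 *Prrx1-CreERT;Ptch1* f/f samples, labelled KO and called *Ptch1*-ablated here, and 3 *Ptch1* f/f control samples, labelled WT. All 6 samples came from mice given 3 doses of tamoxifen. The labels state an interval of 2 months and an age of 10 weeks. They do not settle the age of each sample or its interval after tamoxifen. The paper describes tamoxifen at 2 months of age. *Prrx1-CreERT* is a tamoxifen-inducible recombinase active in keratocytes, corneal endothelial cells and other ocular mesenchyme, so the loss of *Ptch1*, a receptor that restrains Hedgehog signalling, was not directed at the epithelium that was sequenced. The epithelium was lifted from the cornea with EDTA, and the sex of each sample was not given.

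In the Hippo pathway, MST kinases bound to the adaptor SAV1 phosphorylate LATS kinases and their co-activator MOB1. Active LATS kinases then phosphorylate the transcriptional co-activators YAP and TAZ, which keeps them out of the nucleus. NDR kinases are close relatives of the LATS kinases, are also activated by MST kinases and MOB1, and are held by the very large scaffold proteins of the Furry family, *Fry* and *Fryl*, which act in cell shape and polarity. The pathway is controlled largely on the level of phosphorylation, which RNA levels do not measure.

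The start regions of the scaffold and NDR genes are shown first, because the members of these pairs differed most from each other between the groups. Each line comes from the 250 bases before a RefSeq transcription start on GRCm38.p6, written 5′ to 3′ on the gene's own strand. It ends where it meets an exon of a coding GENCODE transcript of the gene, and capitals mark the motif matches. The *Fry* line is therefore cut to 87 bases. In GENCODE the *Fry* gene begins far upstream of this line.
Fry (chr5:150259680-150259766, plus strand): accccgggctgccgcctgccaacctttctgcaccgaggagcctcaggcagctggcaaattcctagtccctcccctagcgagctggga
Fryl (chr5:73256620-73256868, minus strand): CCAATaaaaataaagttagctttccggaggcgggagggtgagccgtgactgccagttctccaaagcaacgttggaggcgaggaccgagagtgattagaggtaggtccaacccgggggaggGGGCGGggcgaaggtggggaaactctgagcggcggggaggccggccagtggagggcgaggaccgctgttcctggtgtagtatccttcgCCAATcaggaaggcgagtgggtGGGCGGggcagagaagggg
Stk38 (chr17:29007996-29008245, minus strand): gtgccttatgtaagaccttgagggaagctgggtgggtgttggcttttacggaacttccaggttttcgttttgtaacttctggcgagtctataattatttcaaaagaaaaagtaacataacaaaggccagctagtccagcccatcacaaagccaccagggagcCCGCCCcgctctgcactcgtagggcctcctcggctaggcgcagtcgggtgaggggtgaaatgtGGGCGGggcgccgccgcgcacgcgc
Stk38l (chr6:146724680-146724929, plus strand): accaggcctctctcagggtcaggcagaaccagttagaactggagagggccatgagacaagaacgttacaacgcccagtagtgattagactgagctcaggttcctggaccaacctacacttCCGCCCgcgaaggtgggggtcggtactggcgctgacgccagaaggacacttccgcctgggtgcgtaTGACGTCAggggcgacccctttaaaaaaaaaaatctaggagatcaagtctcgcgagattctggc

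The whole windows of 250 bases were searched on both strands for short motifs, and the share of all 32851 RefSeq windows of this length that hold each is given for comparison. The motifs were the TEAD site GGAATG (12.6% of windows), the AP-1 site TGANTCA (6.75%), the cyclic AMP response element TGACGTCA (1.55%), the GLI site GACCACCCA (0.225%), the E-box CACGTG (6.02%), the GC box GGGCGG (32.7%) and the CCAAT box CCAAT (33.8%). The *Fry* window held 1 GC box, 113 to 118 bases before the RefSeq start, in the stretch not printed. Its paralog *Fryl* had 2 GC boxes and 2 CCAAT boxes. In *Stk38*, 2 GC boxes were found. The *Stk38l* window held 1 GC box and 1 cyclic AMP response element, the latter 57 to 64 bases before the RefSeq start. That start lies upstream of the GENCODE start of the gene, at 146724995. Between the scaffolds, the *Fry* window had 8 CpG dinucleotides at a GC content of 67.6%, and the *Fryl* window had 17 at 62.4%, against medians of 6 and 52.4% over all windows. The NDR windows were alike, with 16 CpG dinucleotides at 56.0% for *Stk38* and 14 at 55.6% for *Stk38l*. A letter match is a description and not a measured binding site.

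Depth was even, with expected counts (RSEM's estimate of reads per gene) summing to between 20296741 and 20625813 per sample. *Ptch1*-ablated replicate 1 stood apart from the other samples on the first principal component, at 53.8 against 19.2 and 20.0 for the other two of its group and -34.9 to -27.4 for the controls, so values without it, written as without replicate 1, are given for genes it moved. Summed corneal epithelial markers, which include *Krt12*, *Krt5*, *Pax6* and *Aldh3a1*, lay between 101000 and 108000 TPM in controls and between 92800 and 111000 TPM in *Ptch1*-ablated samples, and of these 8 markers *Krt14* alone passed an adjusted p of 0.05 (log2 fold change 2.81, edgeR adjusted p = 0.00769). Keratocyte markers summed to at most 29.5 TPM, most of it *Col1a2* at 26.0 TPM in control replicate 3, and *Kera* reached at most 0.07 TPM. Leukocyte markers summed to 113 to 151 TPM in controls and 149 to 194 TPM after ablation, nearly all *Itgam* and *Cd68*, with *Ptprc* at 0.20 TPM or less. Genes listed as conjunctival goblet cell markers summed to 1320 to 2140 TPM in controls and 2040 to 4160 TPM in *Ptch1*-ablated samples, with the highest sum in replicate 1. Nearly all of this was *Krt13* and *Krt4*, and *Spdef* was at 0.38 TPM or less, so the sum is not a measure of goblet cells. Neither *Krt4* (log2 fold change 1.80, edgeR adjusted p = 0.0685) nor *Krt13* (0.68, adjusted p = 0.107) passed. Of the corneal endothelial markers, *Slc4a11* lay between 23.8 and 29.7 TPM over the 6 samples, and *Col8a1* and *Col8a2* were at 0.52 TPM or less. Vascular endothelial markers summed to 0.09 to 0.10 TPM in controls and 0.19 to 0.32 TPM after ablation. The part of these shifts in the results was not tested, and in bulk RNA fewer cells of a type and less RNA per cell cannot be told apart. *Ptch1* itself was at 7.31, 9.70 and 10.2 TPM in controls and 5.28, 6.33 and 7.01 TPM in *Ptch1*-ablated samples, a log2 fold change of -0.51 ± 0.13 (SE, edgeR adjusted p = 0.0401), which passed in 7 of 15 alternative settings and was -0.43 with an adjusted p of 0.0818 without replicate 1.

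In control epithelium the NDR kinase *Stk38* and the adaptor *Mob1a* were by far the most abundant of the 10 transcripts, and the scaffold *Fry* was the rarest. *Stk38* stood at 121 ± 16.0 TPM (mean ± SD, n = 3) and *Mob1a* at 102 ± 8.54 TPM, with overlapping samples. *Fryl* followed at 32.4 ± 2.62 TPM, then *Stk4* at 26.0 ± 0.748 TPM and *Sav1* at 25.2 ± 3.52 TPM, whose samples overlapped. *Lats1* at 19.2 ± 1.10 TPM, *Stk3* at 17.5 ± 0.664 TPM, *Stk38l* at 16.1 ± 2.01 TPM and *Lats2* at 14.2 ± 1.90 TPM formed a run in which each overlapped the next. *Fry*, at 2.43 ± 0.178 TPM, lay below every other member, and only 16.2% of the tested genes had a lower mean. At the RNA level 1 gene of a pair predominated in the NDR branch, *Stk38* among the kinases and *Fryl* among the scaffolds, whereas *Lats1* and *Lats2*, and *Stk4* and *Stk3*, were within a factor of 2 of each other.

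**Figure D1:**
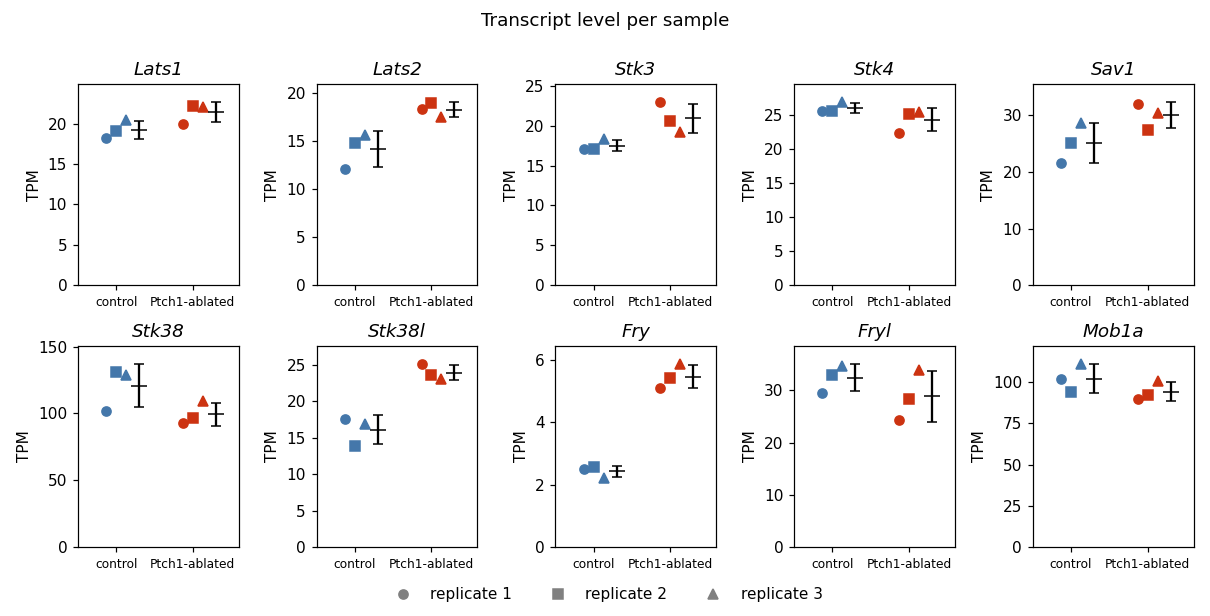
Transcript level (TPM, axis from 0) of each of the 10 genes in 3 control (blue) and 3 Ptch1-ablated (red) samples, with the marker shape giving the replicate number and the black bar the mean and SD. The 3 Ptch1-ablated samples of Fry, between 5.12 and 5.87 TPM, sit above all control samples, which reach 2.56 TPM, while Fryl, Stk4 and Mob1a overlap.

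After *Ptch1* ablation, *Fry* was the member that differed most, at about 2.3 times its control level, and *Stk38l* followed at about 1.5 times. *Lats2*, *Stk3*, *Sav1* and *Lats1* were higher by smaller amounts. *Stk38*, *Fryl*, *Mob1a* and *Stk4* lay slightly below their control means with overlapping groups. In normalised read counts, all 3 *Ptch1*-ablated samples lay above all 3 controls for 6 of the 10 members (*Fry*, *Stk38l*, *Lats1*, *Lats2*, *Stk3* and *Sav1*) and below them for 0. Over all tested genes the groups did not overlap in 39.9%, with 19.7% higher and 20.3% lower. One member, *Fry*, met an adjusted p of at most 0.05 with a fold change of at least 2, against 3.23% of tested genes (2.34% higher and 0.892% lower). *Fry* and *Stk38l* met the adjusted p alone, against 14% of tested genes (7.61% higher and 6.41% lower). *Fry* also did so in all 15 alternative settings, and *Stk38l* in 11 of 15, with a highest edgeR adjusted p of 0.097. Since the members were chosen from this contrast, nothing is read from these counts.

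**Figure D2:**
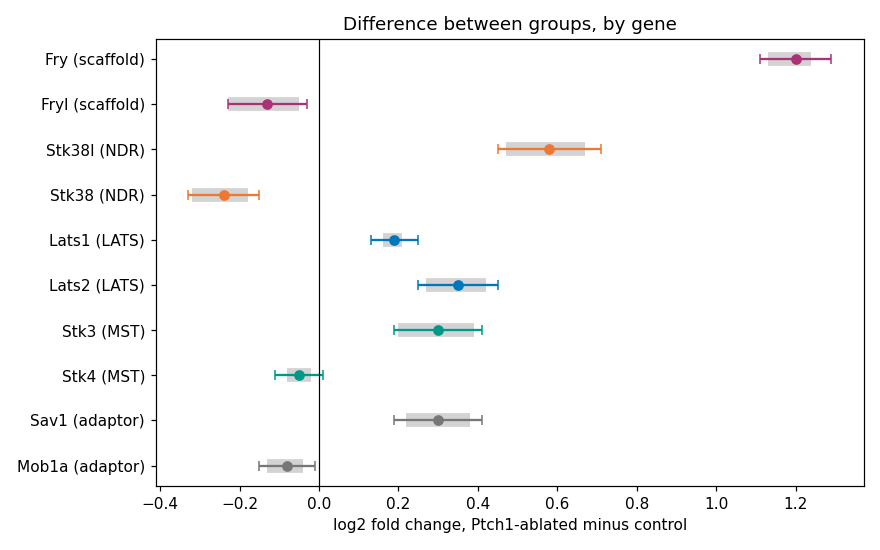
Log2 fold change of each gene, Ptch1-ablated minus control, from edgeR, with points and bars for the estimate and its standard error and grey bands for the range when each sample is left out in turn. Fry, at 1.20, and Stk38l, at 0.58, lie apart from their paralogs Fryl, at -0.13, and Stk38, at -0.24.

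Among the scaffolds, *Fry* was higher in every *Ptch1*-ablated sample and *Fryl* was not. *Fry* (gene ID 320365, chr5:150118645-150497753, plus strand, 61 exons in its longest coding transcript) was at 2.51, 2.56 and 2.23 TPM in control replicates 1, 2 and 3 and at 5.12, 5.43 and 5.87 TPM in the *Ptch1*-ablated replicates. Its normalised counts were 259, 256 and 219 against 553, 558 and 579, so the value rested on 219 to 579 normalised reads per sample. The groups were far apart, and the log2 fold change was 1.20 ± 0.09 (SE), higher than in 97.3% of tested genes. *Fryl* (gene ID 72313, chr5:73019987-73256619, minus strand, 63 exons) was at 29.6, 33.0 and 34.7 TPM in controls and 24.3, 28.4 and 34.0 TPM after ablation. Those groups overlapped, at a log2 fold change of -0.13 ± 0.10. *Fryl* in *Ptch1*-ablated replicate 1 was the lowest of all 6 samples, and without that sample the estimate was -0.05.

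The level of *Fry* was even among the *Ptch1*-ablated samples. Their normalised counts had a coefficient of variation of 2.48%, which is below the 4.25% that counting error alone gives at this level, so no smaller biological spread can be read from it. Among the 304 genes called higher, the median coefficient of variation in the *Ptch1*-ablated group was 31.5%, and 1 gene had a smaller value than *Fry*. Replicate 1 was the highest sample in 250 of these 304 genes (82.2%), whereas *Fry* was among the 18 (5.92%) in which it was the lowest of its group. Without replicate 1 the log2 fold change of *Fry* was 1.22.

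The NDR kinases, the partners of these scaffolds, also differed from each other. *Stk38l* (gene ID 232533, chr6:146724995-146778812, plus strand) was at 17.6, 13.8 and 16.9 TPM in controls and 25.1, 23.6 and 23.1 TPM in *Ptch1*-ablated samples. No control reached the *Ptch1*-ablated samples, and the log2 fold change was 0.58 ± 0.13, or 0.49 without replicate 1. *Stk38* (gene ID 106504, chr17:28970880-29007995, minus strand) was at 102, 131 and 129 TPM against 92.6, 96.8 and 109 TPM. Control replicate 1 fell within the range of the *Ptch1*-ablated samples, and the log2 fold change was -0.24 ± 0.09. Because *Stk38* is much the more abundant, the 2 NDR kinases summed to 137 ± 14.7 TPM in controls and 124 ± 7.94 TPM after ablation, with overlapping groups.

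The LATS kinases, which phosphorylate YAP and TAZ, were both slightly higher after ablation. *Lats2* (gene ID 50523, chr14:57689662-57758388, minus strand) was at 12.1, 14.8 and 15.7 TPM in controls and 18.4, 19.0 and 17.5 TPM after ablation, a log2 fold change of 0.35 ± 0.10 with no overlap. *Lats1* (gene ID 16798, chr10:7681214-7716460, plus strand) was at 18.2, 19.1 and 20.4 TPM against 20.0, 22.2 and 22.0 TPM, a log2 fold change of 0.19 ± 0.06. For *Lats1* the groups were apart in normalised counts (1272, 1278 and 1348 against 1461, 1520 and 1457) but overlapped in TPM, where control replicate 3 exceeded *Ptch1*-ablated replicate 1. Summed, the LATS kinases stood at 33.4 ± 2.95 TPM in controls and 39.7 ± 1.38 TPM after ablation, without overlap.

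The MST kinases, which act above LATS and NDR, also lay on both sides of 0, within a narrower range. *Stk3* (gene ID 56274, chr15:34875496-35178921, minus strand) was at 17.1, 17.1 and 18.3 TPM in controls and 22.9, 20.6 and 19.2 TPM after ablation, a log2 fold change of 0.30 ± 0.11, or 0.20 without replicate 1. That sample was the highest of the 6. *Stk4* (gene ID 58231, chr2:164070322-164155524, plus strand) was at 25.6, 25.6 and 26.9 TPM against 22.4, 25.2 and 25.5 TPM, a log2 fold change of -0.05 ± 0.06. Together the MST kinases summed to 43.5 ± 1.41 TPM in controls and 45.3 ± 0.57 TPM after ablation, with overlapping groups.

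The adaptors behaved differently from each other. *Sav1* (gene ID 64010, chr12:69965012-69987002, minus strand), which binds MST kinases, was at 21.6, 25.2 and 28.7 TPM in controls and 32.0, 27.5 and 30.5 TPM after ablation. Its log2 fold change was 0.30 ± 0.11, or 0.22 without replicate 1, with groups apart in normalised counts (526, 587 and 657 against 810, 666 and 704) and overlapping in TPM. *Mob1a* (gene ID 232157, chr6:83326016-83343776, plus strand), the co-activator shared by LATS and NDR kinases, was at 102, 93.8 and 111 TPM against 90.0, 92.1 and 101 TPM. Its groups overlapped at a log2 fold change of -0.08 ± 0.07. In the order of levels, *Sav1* moved from place 5 to place 3 and *Stk38l* from place 8 to place 6 after ablation, and *Fry* stayed last at 5.47 ± 0.377 TPM.

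Set against each other as classes, the LATS and MST kinases and the NDR kinases and Fry scaffolds had nearly the same median, and the second class was spread more widely. The median log2 fold change was 0.25 for the 4 LATS and MST kinases and 0.22 for the 4 NDR and Fry genes, beside -0.01 over all tested genes and 0.24 over all 10 members. The difference between the medians, 0.02, was smaller than the SD of the same contrast between replicates, 0.07. Leaving out each sample in turn gave -0.02 to 0.09, with a sign change without control replicate 1 (-0.02) and without *Ptch1*-ablated replicates 1 (-0.02) or 2 (-0.01). The LATS and MST kinases ranged from -0.05 to 0.35 with 3 of 4 above 0, and the NDR and Fry genes ranged from -0.24 to 1.20 with 2 of 4 above 0.

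Within each of the 4 pairs, the gene with the lower TPM in controls took a larger share after ablation. The *Fry* to *Fryl* ratio of TPM was 0.0849, 0.0776 and 0.0642 in controls and 0.211, 0.191 and 0.173 in *Ptch1*-ablated samples, 2.54 times higher on average. The *Stk38l* to *Stk38* ratio was 0.172, 0.105 and 0.132 against 0.271, 0.244 and 0.211, 1.78 times higher. For *Stk3* over *Stk4* the ratio was 0.670, 0.668 and 0.679 against 1.03, 0.820 and 0.756, 1.29 times higher, and in replicate 1 *Stk3* exceeded *Stk4*. *Lats2* over *Lats1* was at 0.662, 0.772 and 0.769 against 0.918, 0.854 and 0.796, 1.17 times higher. None of these 4 ratios of TPM overlapped between the groups. The share of other gene pairs without overlap was not computed, and among single tested genes it was 39.9%. Since the pairs come from members chosen from this contrast, nothing is read from this count. With normalised counts in place of TPM, a comparison added after the data were seen, *Lats2* over *Lats1* did overlap, at 0.452, 0.525 and 0.500 against 0.577, 0.575 and 0.499, and the other 3 did not. As shares, *Fry* made up 7.02 ± 0.909% of the scaffold TPM in controls and 16.1 ± 1.34% after ablation, and *Stk38l* 11.9 ± 2.58% and 19.5 ± 1.95% of the NDR TPM. The ratio of summed NDR to summed LATS kinases was lower after ablation, at 3.06, 2.92 and 3.36 against 3.96, 4.28 and 4.03 in controls, or 0.761 times on average. The ratio of Fry scaffolds to NDR kinases overlapped, at 0.255 ± 0.0114 in controls and 0.277 ± 0.0256 after ablation.

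**Figure D3:**
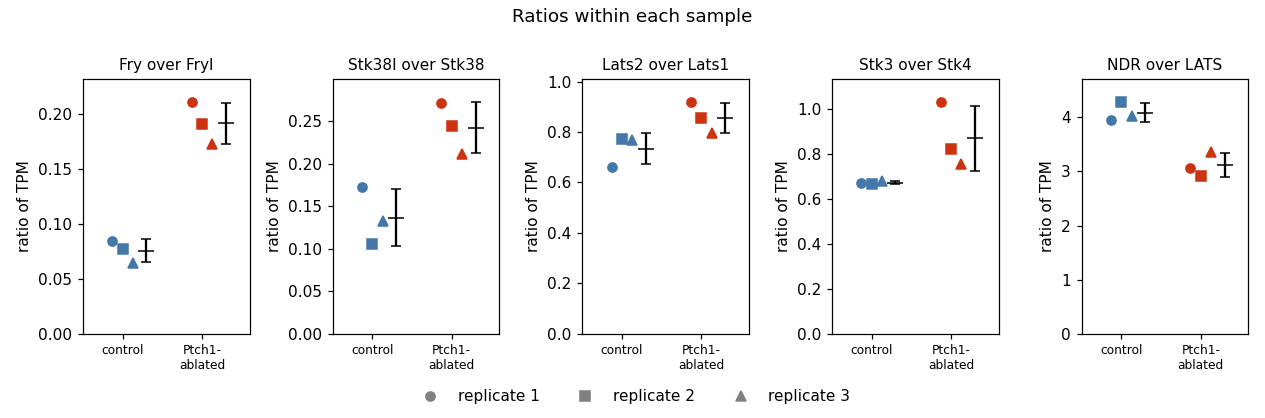
Ratio of TPM (axis from 0) between the members of each pair, and between the summed NDR and LATS kinases, in 3 control (blue) and 3 Ptch1-ablated (red) samples, with marker shape for the replicate and a black bar for the mean and SD. The 4 pair ratios are all higher in Ptch1-ablated samples and the NDR over LATS ratio is lower, with the largest shift in Fry over Fryl, from a mean of 0.0756 to 0.192.

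Sequence shared with other genes was extensive in 3 of the members and slight or none in the other 7. In the GENCODE models on GRCm38, 0 stretches of 50 bases were shared between members. The longest coding transcript of *Stk38l* had 37.8% of its 50-base stretches also in other genes, mostly the processed pseudogene *Gm3555*, and *Lats2* had 56.5% shared with the overlapping *Gm49361* on the same strand. *Sav1* had 52.0% in *Atl1*, which overlaps it on the opposite strand. *Atl1* was at 101, 108 and 131 normalised counts in controls and 89.9, 88.3 and 84.6 after ablation, lower where *Sav1* was higher. *Fry* had 0.0738% shared, *Fryl* 0.523% and *Lats1* 0.0279%. The expected count divided by TPM, which follows the effective transcript length that RSEM used, varied by 8.50% of the control mean for *Lats2* and 4.60% for *Stk38l*, and by 2.30% or less for the others. Expected counts that were not whole, which arise where RSEM divides reads, were found in 6 of 6 samples for *Lats1* and *Stk4*, in 5 for *Fry* and *Stk38l*, in 3 for *Lats2* and in 0 for *Sav1* and the other 4 members. How far divided reads moved the values was not tested.

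Genes whose level followed *Fry* most closely over the 6 samples were *Phlpp1*, *Sntb2*, *Map4*, *4833420G17Rik* and *Furin*, with Pearson's r of log2 CPM from 0.9937 to 0.9956 among 10322 genes with a mean normalised count of at least 100. They share the 2-group structure of the samples, and 223 genes (2.16%) reached 0.95. Their own changes were smaller than that of *Fry*. *Furin*, a proprotein convertase, had a log2 fold change of 0.57 and *Phlpp1*, a phosphatase of AKT, 0.22. Among members the same measure was 0.90 for *Lats1*, 0.86 for *Stk38l*, 0.79 for *Lats2*, 0.76 for *Stk3* and 0.70 for *Sav1*, and it was negative for *Mob1a* (-0.57), *Stk4* (-0.58), *Fryl* (-0.54) and *Stk38* (-0.80).

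Around these kinases, a list of 76 other Hippo and NDR genes was examined, of which 75 were in the table and 68 were tested. By edgeR with Benjamini-Hochberg adjustment, 10 rose and 3 fell at an adjusted p of at most 0.05, 19.1% against the 14% of all tested genes, and 55 did not pass. Their median log2 fold change was 0.06. These calls rested on few samples, as did those over all genes. The list had 4 (5.88%) without control replicate 1, against 5.21% of all tested genes. It had 0 without control replicate 2 (25 at an unadjusted p under 0.05 in edgeR), against 0.704%. Without control replicate 3 it had 1 (1.47%) against 5.56%, and without *Ptch1*-ablated replicate 2 it had 6 (8.82%) against 7.92%. The list kept 12 (17.6%) without *Ptch1*-ablated replicate 1, against 8.89%, and 10 (14.7%) without *Ptch1*-ablated replicate 3, against 10.1%. With a fold change of at least 2 as well, 0 passed by edgeR (2 at an unadjusted p under 0.05) and 2 by DESeq2. None of the 6 other MOB adaptors passed in edgeR, with 3 at an unadjusted p under 0.05. *Mob1b*, the close relative of *Mob1a*, was at 16.0, 14.8 and 17.8 TPM against 19.7, 17.4 and 18.4 TPM, and the NDR-specific *Mob2* was at 43.0 ± 1.51 TPM and 42.5 ± 1.26 TPM.

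Of 13 other kinases above LATS and NDR, 3 rose and 1 fell. *Taok3*, a kinase able to activate MST kinases, rose from 45.0, 52.0 and 57.3 TPM to 71.9, 68.1 and 73.3 TPM (log2 fold change 0.51 ± 0.08, adjusted p = 0.0139). *Map4k4*, which can phosphorylate LATS kinases, rose by 0.50 on the log2 scale (adjusted p = 0.0387), or 0.34 without replicate 1 (adjusted p = 0.0192). *Taok1* rose by 0.28 (adjusted p = 0.0401, and 0.0737 without replicate 1). *Map4k2* fell by 0.70 (adjusted p = 0.0422, and 0.0698 at a log2 fold change of -0.55 without replicate 1), and it is named after its values were seen.

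Of 19 tested junction and polarity genes that act upstream of the kinases, 3 rose and 0 fell, with 8 at an unadjusted p under 0.05. *Crb3*, an apical polarity protein, rose from 102 ± 6.18 TPM to 140.0 ± 7.70 TPM (log2 fold change 0.52 ± 0.10, adjusted p = 0.0191, or 0.43 without replicate 1) and *Llgl2*, a basolateral one, rose by 0.37 (adjusted p = 0.0207). The atypical cadherin *Fat4*, named after its values were seen, was at 7.23, 7.50 and 6.04 TPM against 1.63, 4.16 and 4.13 TPM (log2 fold change -1.04). It did not pass with all samples (adjusted p = 0.0564) but did without replicate 1, its lowest sample, at a log2 fold change of -0.73 (adjusted p = 0.0153). Of the 15 alternatives, *Fat4* passed in 2 and did not in 13, with a highest edgeR adjusted p of 0.169.

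The RASSF proteins, which bind MST kinases, split in direction, with 1 of 4 tested genes higher and 1 lower. *Rassf1* rose from 45.1, 44.0 and 46.9 TPM to 83.3, 61.4 and 63.7 TPM (0.66 ± 0.14, adjusted p = 0.0280), with replicate 1 the highest and 0.47 without it, and *Rassf3* fell by 0.30 (adjusted p = 0.0409). Among 12 tested genes that restrain LATS, 2 rose and 0 fell, with 5 at an unadjusted p under 0.05. *Zyx*, a LIM protein of focal adhesions, rose from 89.6, 108 and 90.4 TPM to 157, 127 and 157 TPM (0.57 ± 0.10, adjusted p = 0.0186, or 0.50 without replicate 1), and the kinase *Mark3* rose by 0.28 (adjusted p = 0.0266). *Siah2*, of the same sublist and also named after its values were seen, was at 5.64, 4.87 and 3.71 TPM against 12.5, 7.81 and 7.32 TPM. Its log2 fold change was 1.00 and it did not pass (adjusted p = 0.0514), nor did it without replicate 1, at 0.68 (adjusted p = 0.0855). Of 14 tested genes of the STRIPAK phosphatase complex, which removes phosphate from MST kinases, 1 rose and 1 fell. The latter, *Fgfr1op2*, fell by 0.23 (adjusted p = 0.0476, and 0.0758 without replicate 1). Genes that activate and genes that restrain the kinases were thus both among those that rose.

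**Figure D4:**
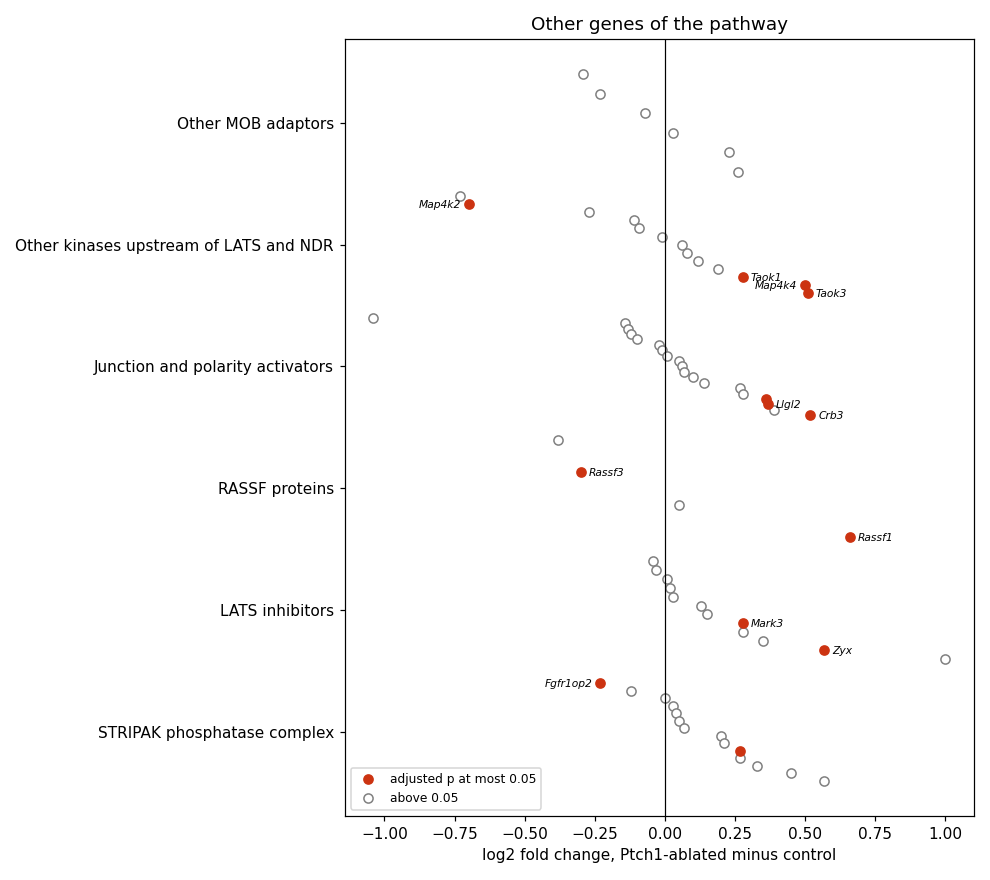
Log2 fold change, Ptch1-ablated minus control, of 68 tested genes around the kinases, by sublist and spread vertically for visibility, with filled red points for an adjusted p of at most 0.05 in edgeR open points above it and names beside most filled points. There are 10 filled points to the right of 0 and 3 to the left, and most genes lie near 0, with a median of 0.06.

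At the output of the pathway, *Yap1* did not pass the test (log2 fold change -0.06 ± 0.06, edgeR adjusted p = 0.526) and was at 128, 138 and 146 TPM in controls and 124, 123 and 138 TPM after ablation. *Wwtr1*, which encodes TAZ, rose by 0.54 (adjusted p = 0.0292) and *Tead4*, one of their DNA-binding partners, by 1.25 (adjusted p = 0.0188). *Wwtr1* was at 0.43 without replicate 1 (adjusted p = 0.0419) and did not pass in 4 of 15 alternatives, those without control replicates 1, 2 or 3 or *Ptch1*-ablated replicate 2, with a highest adjusted p of 0.116. *Tead4* did not pass in 1 of 15, without control replicate 2 (adjusted p = 0.0908).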

How the data were processed

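Corneal epithelial bulk RNA-seq of 6 samples was used, with groups and replicate numbers from the labels. The authors deposited 1 table of 17784 genes with expected counts, FPKM and TPM per sample, and group averages. Per the labels and the submitters' processing notes, these came from Bowtie2 2.2.5 and RSEM 1.2.12 with mm9 as the build. The paper describes rRNA depletion and DNA nanoball sequencing, and the labels name an Illumina kit. RSEM divides reads that match several genes. The deposited FPKM values and the authors' averages were not used, and the number of other sample columns was 0.

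Expected counts were rounded and tested in R 4.3.3 by the quasi-likelihood test of edgeR 4.0.16 (filterByExpr, TMM factors 0.960 to 1.03, Benjamini-Hochberg over 12999 genes, group as the only term). Calls needed an adjusted p of 0.05 or less and, where stated, a fold change of 2 or more. For normalised counts, CPM on TMM-scaled totals was multiplied by the mean scaled total. TPM values were used as deposited. Samples of a group differed by a chi-square per degree of freedom of 10.1 to 37.8, so each was kept as a replicate. The study gives 3 biological replicates per group.

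The members and gene lists were chosen with earlier results of these data known. All members were named, with *Ptch1*, *Yap1*, *Wwtr1*, *Tead4*, the 5 genes most correlated with *Fry*, and from each pathway sublist every gene past an adjusted p of 0.05 and a fold change of 2, otherwise at most the 3 of smallest p among those past the adjusted p. Some genes that meet this rule are not reported here. Promoters came from RefSeq (9 of 10 members) and gene positions from GENCODE M21, both on GRCm38. No coordinate was taken from the mm9 alignment. Alternatives were DESeq2 1.42.0, limma 3.58.1 on log2(TPM + 1) or log2(TPM + 0.1) for genes of mean TPM at least 1 or all genes, other size factors, other filters on low counts, a replicate block and each sample left out. Pair ratios from normalised counts were added after seeing the data. On simulated data of 12910 genes, edgeR recovered 100% of those changed by 1.5 on the log2 scale and 86% of those changed by 0.6. Of its calls, 3.88% were false. How far these shares hold for the measured samples, where *Ptch1*-ablated replicate 1 stood apart, was not tested.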

Additional observations from a re-analysis of the deposited data

How the results depend on the processing

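Each member kept the sign of its log2 fold change in all 15 alternatives. *Fry* ranged from 0.91, in limma on log2(TPM + 1), to 1.24, and *Stk38l* from 0.47 to 0.67. The adjusted p of *Stk38l* was above 0.05 without control replicates 2 or 3 and without *Ptch1*-ablated replicates 1 or 2. The class difference of 0.02 ranged from -0.02 to 0.09 without 1 sample, and was 0.02 with the replicate block.

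The 420 calls over all genes became 234 in limma on log2(TPM + 1), 168 in limma without the TPM filter, and 1822 with no minimum fold change, and ranged from 59 to 430 without 1 sample (250 without control replicate 1, 59 without control replicate 2, 254 without control replicate 3 and 273 without *Ptch1*-ablated replicate 1). The 13 genes of the pathway list became 20 in DESeq2, 6 in limma without the TPM filter and 0 with a fold change of at least 2, and ranged from 0 to 12 without 1 sample. The count was 4 without control replicate 1, 0 without control replicate 2 (25 at an unadjusted p under 0.05 in edgeR), 1 without control replicate 3 and 6 without *Ptch1*-ablated replicate 2. The share of all tested genes past the adjusted p fell too, from 14% to 5.21%, 0.704%, 5.56% and 7.92% in the same fits. The cause of these losses was not tested. Each pathway gene named as past the test kept its direction in all 15 alternatives, but not always its adjusted p. That was above 0.05 in 10 of 15 for *Taok1*, 9 for *Map4k2* and *Fgfr1op2*, 8 for *Mark3*, 6 for *Rassf3* and 5 for *Map4k4*. For *Llgl2*, *Rassf1* and *Zyx* this held in 3, for *Crb3* in 2 and for *Taok3* in 1. *Mob2*, near 0, was below 0 in 4 of 15.

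Deviations of same-numbered samples from their group means correlated at 0.102, -0.0366 and 0.0107. Low values of this kind cannot show that the samples were not paired, and the main fit treated them as unpaired. With the replicate block, 390 genes were called overall and 12 in the pathway list (11 higher and 1 lower).

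With 3 samples per group, differences of the size seen in *Fryl*, *Stk4* or *Mob1a* are close to the spread between samples, and *Fry* was measured from 219 to 579 normalised counts per sample.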
